A study of Homo sapiens with 5 samples.

Results

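The genes described here are 9 that carry the first steps of signalling from the B-cell receptor: CD79A, CD79B, CD22, CD72, SYK, LYN, BTK, BLNK and PLCG2. They were chosen by name, out of 18417 genes measured, and of the probe sets annotated to a gene alone, the one brightest on average over the 5 arrays was read. The arrays held RNA from Nalm6 clones, Nalm6 being an established human line from an acute lymphoblastic leukaemia of B-cell precursors. The control group was 2 clones with a nonsense shRNA (short hairpin RNA), and the other group was 3 clones with a shRNA against MondoA, a glucose-responsive transcription factor encoded by MLXIP, with 1 array for each clone. All clones were kept in RPMI medium with 200 mg/dl glucose and 20% fetal bovine serum, 1% glutamine and 100 µg/mL gentamycin. The only agent that differs by label is the hairpin, and since a clone grows from few cells, a difference between clones and an effect of the hairpin cannot be told apart in any single array. The unit is log2 of the RMA expression value, so a difference of 1 is a doubling of signal, and an error after ± is the SD over the clones of a group (n = 2 for control, n = 3 for MondoA shRNA) where no SE is named.

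On a B cell the receptor is a membrane immunoglobulin held by a heterodimer of CD79A and CD79B, whose tails carry paired tyrosines. The Src family kinase LYN phosphorylates those tyrosines, SYK docks on them, and the adaptor BLNK then brings BTK to PLCG2, the phospholipase that releases calcium and activates protein kinase C. CD22 and CD72 are co-receptors that, once phosphorylated by LYN, recruit the phosphatase SHP-1 (PTPN6) and damp the signal. In B-cell precursors the same machinery serves the pre-B receptor, in which the surrogate light chain of VPREB1 and IGLL1 takes the place of the light chain, and its output helps to decide survival and further maturation.

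The cells carried the RNA of this lineage. Of 10 markers of B precursors, 8 had a probe set of their own and all 8 lay above the median gene level of 4.15, with PAX5 at 9.03 in both control arrays. These markers include CD79A, which was the only 1 to separate above both controls, and 3 separated below (4.85% and 5.18% of all genes). Their summed level was 69.45 to 70.00 in the controls and 68.30 to 70.09 in the MondoA shRNA clones. Opposite moves offset each other in such a sum, which does not show that each marker was unchanged. It holds CD79A, which differed by 0.91, and DNTT, among the 3 below, which differed by -1.19. Of 9 markers of T and natural killer cells, 7 lay below that level, as did 6 of 7 myeloid, 3 of 4 measured erythroid, 4 of 5 stromal and 2 of 5 plasma cell markers. The summed level of the T and natural killer markers was 29.91 to 30.28 in the controls and 29.98 to 30.93 in the MondoA shRNA clones. MLXIP, the targeted gene, read 6.42 in each control clone and 6.42, 6.47 and 6.29 in MondoA shRNA clones 1, 2 and 3 (limma adjusted p = 0.959), so the groups are named by label and directions refer to the label. None of the 9 signalling genes had a value shared between arrays. Levels of different probe sets depend on their probes and are not compared with each other. Where a difference between probe sets is given, only its shift between groups is read.

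Across the set, 4 genes (CD22, CD79A, LYN and CD79B) read higher in every MondoA shRNA array than in either control array. PLCG2 read lower in every one by its kept probe set, with a gap of 0.03, and higher in every one by its other probe set. CD72, SYK, BTK and BLNK overlapped between the groups. None passed the adjusted threshold of 0.05 in limma, and 0.0% of all genes did. In limma 4 of the 9 had an unadjusted p under 0.05, all higher, against 1.55% of all genes higher and 2.18% lower (3.73% in either direction). Separation above both controls was seen for 4.85% of all genes and separation below for 5.18%. Many genes on these arrays have values tied between arrays and cannot separate. Among the 4301 genes without tied values, to which all 9 belong, the shares were 14.4% above and 16.6% below, and 13.2% had an unadjusted p under 0.05. The median difference of the 9 was 0.38, against 0.00 over all genes, most of which have tied values. Regardless of sign, the median was 0.38 for the 9 and 0.13 over genes without tied values.

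**Figure D1:**
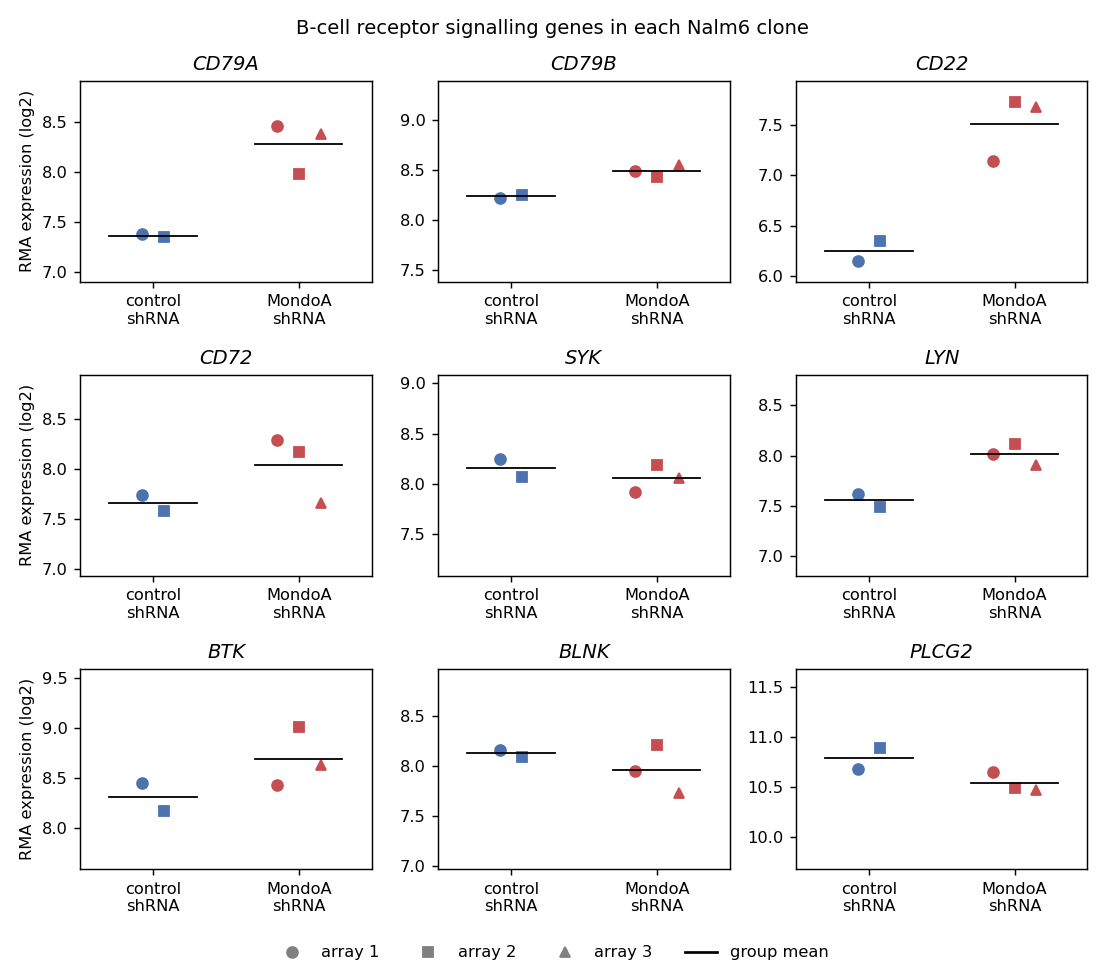
RMA expression (log2, vertical axis, each panel spanning 2 units) of the 9 genes in each clone, with control shRNA arrays in blue and MondoA shRNA arrays in red. Symbols give the array number within its group, and black lines are group means. Nothing in the labels links numbers across groups. CD79A, CD79B, CD22 and LYN have all 3 MondoA shRNA arrays above both control arrays, and the kept probe set of PLCG2 has all 3 below.

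The stretch before the start of a gene is where factors that set its RNA level bind, so it is shown for CD79A and CD22, which had the largest differences, for CD72, the other inhibitory co-receptor, and for BLNK, which was not higher. Each is the 250 bases before the start annotated by RefSeq on GRCh38.p14, from 5′ to 3′ on the strand of the gene. CD79A lies at chr19:41877029-41877278 and CD22 at chr19:35328937-35329186, both on the plus strand, while CD72 lies at chr9:35618414-35618663 and BLNK at chr10:96271570-96271819 on the minus strand. Capitals mark AGGAAG, a core bound by ETS factors such as PU.1, and CAGGTG, an E-box of the type bound by E2A, on either strand.
CD79A: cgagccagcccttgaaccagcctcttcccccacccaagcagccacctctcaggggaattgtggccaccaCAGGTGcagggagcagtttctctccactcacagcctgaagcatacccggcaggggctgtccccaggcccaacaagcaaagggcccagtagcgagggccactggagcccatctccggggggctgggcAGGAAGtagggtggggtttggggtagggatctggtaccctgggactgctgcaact
CD22: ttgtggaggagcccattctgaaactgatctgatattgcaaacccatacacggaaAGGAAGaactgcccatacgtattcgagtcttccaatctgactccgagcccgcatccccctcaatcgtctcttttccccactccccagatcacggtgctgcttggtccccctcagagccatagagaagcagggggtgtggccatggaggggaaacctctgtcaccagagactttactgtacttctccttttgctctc
CD72: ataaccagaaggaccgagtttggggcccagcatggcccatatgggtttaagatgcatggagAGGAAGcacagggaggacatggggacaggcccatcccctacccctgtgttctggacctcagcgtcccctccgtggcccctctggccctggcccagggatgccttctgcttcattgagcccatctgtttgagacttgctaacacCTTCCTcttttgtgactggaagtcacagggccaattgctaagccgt
BLNK: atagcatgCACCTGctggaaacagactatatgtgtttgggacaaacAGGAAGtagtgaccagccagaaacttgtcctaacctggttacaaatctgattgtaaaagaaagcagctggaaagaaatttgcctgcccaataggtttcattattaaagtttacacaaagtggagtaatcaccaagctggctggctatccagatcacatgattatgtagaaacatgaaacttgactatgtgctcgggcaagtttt
The CD79A window held CAGGTG at 181 and AGGAAG at 55 bases before the start. In CD22 AGGAAG began 196 bases before the start, and in CD72 it was found at 189 and, on the other strand, at 46 bases. BLNK held CAGGTG at 242 and AGGAAG at 204 bases. RefSeq windows were matched for 7 of the 9 genes, all but CD79B and LYN, and some genes had several starts, giving 10 windows. AGGAAG was present in at least 1 window of all 7 genes and in 8 of the 10 windows, against 28.7% of 35116 windows of the same length over all genes. CAGGTG was present in 4 of the 10 windows (17.5% of all windows). CACGTG, the E-box that MondoA binds with its partner MLX when paired in a carbohydrate response element, was in 0 of the 10 and in 6.34% of all windows. The octamer ATGCAAAT was in 0 (1.63%) and CCCNNGGG, a core of EBF1 sites, in 1, that of BTK (17.1%). All were searched on both strands and no matches overlapped. AGGAAG thus stood in CD22 and CD79A and equally in BLNK, whose groups overlapped.

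Of the receptor chains, CD79A and CD79B both read higher in the arrays labelled MondoA shRNA, CD79A by the larger margin. CD79A (probe set 8029136, chromosome 19) read 7.38 and 7.35 in the control arrays and 8.46, 7.98 and 8.38 in the MondoA shRNA clones 1, 2 and 3. The lowest MondoA shRNA array stood 0.60 above the highest control. The group means were 7.36 ± 0.02 and 8.27 ± 0.26, a difference of 0.91 (1.88-fold) with a 95% interval from 0.39 to 1.42 (limma unadjusted p = 0.00926, adjusted p = 0.833). CD79B (probe set 8017511, chromosome 17) read 8.22 and 8.25 in the controls and 8.49, 8.43 and 8.55 in the MondoA shRNA clones. The groups did not overlap, the gap being 0.18, and the spread within each was the smallest of the set for MondoA shRNA arrays at 0.06. The CD79B difference was 0.25 (1.19-fold), interval 0.13 to 0.38 (limma unadjusted p = 0.0056, adjusted p = 0.833).

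The chains form a heterodimer, so the difference between their signals was taken within each array. Its size does not give a ratio of the chains, and only its shift between groups is read. CD79A minus CD79B was -0.84 and -0.91 in the controls and -0.03, -0.46 and -0.17 in the MondoA shRNA clones, a shift of 0.65 with no overlap. Over the 10 ways to divide the 5 arrays, the exact two-sided permutation p was 0.1, the smallest this design allows, and 0.133 adjusted over the 4 pairs of probe sets compared in this way.

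Of the inhibitory co-receptors, CD22 differed most in the set, and CD72 overlapped between the groups. CD22 (probe set 8027837, chromosome 19), a sialic acid-binding lectin, read 6.15 and 6.35 in the controls and 7.14, 7.73 and 7.68 in the MondoA shRNA clones. Array 1 was the lowest of the MondoA shRNA arrays and still 0.79 above the higher control. The means were 6.25 ± 0.14 and 7.52 ± 0.33, a difference of 1.27 (2.41-fold), interval 0.58 to 1.95 (limma unadjusted p = 0.0079, adjusted p = 0.833). By size of difference CD22 ranked 19 among the 18417 genes and CD79A ranked 61. CD72 (probe set 8161004, chromosome 9), a C-type lectin-like receptor, read 7.74 and 7.58 in the controls and 8.29, 8.17 and 7.66 in the MondoA shRNA clones. Arrays 1 and 2 lay above both controls and array 3 lay between them. The CD72 difference was 0.38, interval -0.30 to 1.06 (limma unadjusted p = 0.187). It was 0.57 both without array 3 and in the fit blocked on replicate (limma unadjusted p = 0.0128 and 0.00422, adjusted p = 0.735 and 0.828) and 0.13 with array weights. Within arrays, CD22 minus CD72 shifted by 0.89, from -1.58 and -1.23 in control to -1.15, -0.44 and 0.02 in the MondoA shRNA clones (exact permutation p = 0.2, adjusted p = 0.2).

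Another fit used only the 4301 genes without tied values, so that limma estimates the prior spread from genes that vary over these same arrays. It called 60 of the 4301 genes. CD22 (limma adjusted p = 0.0207) and CD79A (limma adjusted p = 0.044) were among them, at the same differences. Over all 15 alternatives the adjusted p ranged from 0.0207 to 0.836 for CD22 and from 0.044 to 0.836 for CD79A. The difference ranged from 1.16 to 1.46 for CD22 and from 0.82 to 1.06 for CD79A. It ranged from 0.13 to 0.57 for CD72 and from 0.22 to 0.29 for CD79B.

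**Figure D2:**
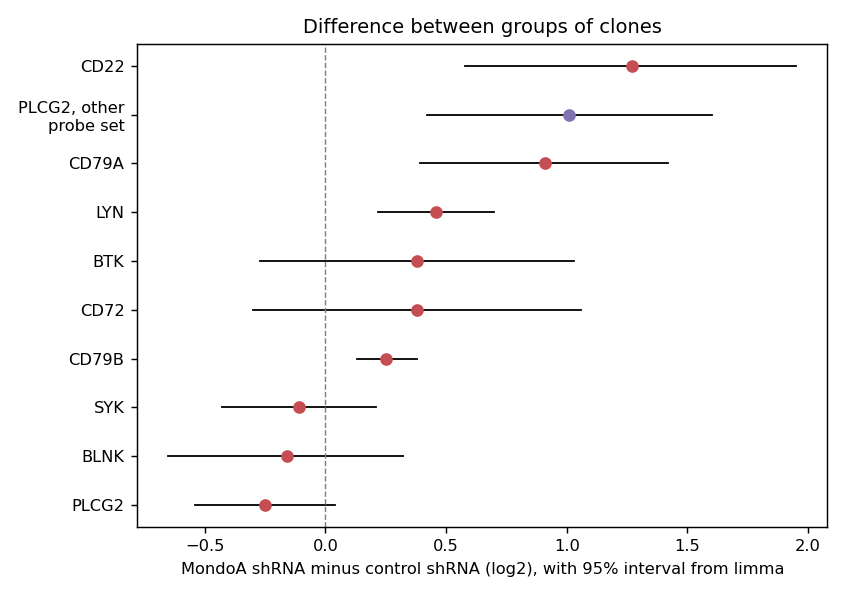
Difference between the means of MondoA shRNA and control shRNA arrays (log2, horizontal axis) for each gene, as points, with the 95% interval from limma as lines. The intervals of CD22, CD79A, LYN and CD79B lie above 0, those of BTK, CD72, SYK, BLNK and the kept PLCG2 probe set include 0, and the other PLCG2 probe set (violet) has an interval from 0.42 to 1.60.

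Among the kinases, LYN read higher in every MondoA shRNA array, whereas SYK and BTK overlapped between the groups. LYN (probe set 8146500, chromosome 8), which phosphorylates both the receptor tails and those of the inhibitory co-receptors, read 7.62 and 7.49 in the controls and 8.02, 8.12 and 7.91 in the MondoA shRNA clones. All 3 lay at least 0.30 above the controls, with a difference of 0.46 (1.38-fold), interval 0.22 to 0.70 (limma unadjusted p = 0.00703, adjusted p = 0.833). SYK (probe set 8156321, chromosome 9) read 8.25 and 8.07 in the controls and 7.92, 8.19 and 8.06 in the MondoA shRNA clones. Its groups overlapped, the difference was -0.11, and the interval of -0.43 to 0.21 leaves out a doubling or a halving of signal. The SYK difference ran from -0.20 without control array 2 to -0.02 without control array 1, and was -0.17 and -0.04 without MondoA shRNA arrays 2 and 1. BTK (probe set 8174051, chromosome X) read 8.45 and 8.17 in the controls and 8.43, 9.01 and 8.63 in the MondoA shRNA clones. Array 2 was the high one, array 1 lay within the control range, and the difference of 0.38 had an interval from -0.27 to 1.03 (limma unadjusted p = 0.173). It was 0.22 without array 2 and 0.24 without control array 2. LYN minus SYK within arrays was -0.64 and -0.58 in the controls and 0.09, -0.07 and -0.14 in the MondoA shRNA clones, a shift of 0.57 (exact permutation p = 0.1, adjusted p = 0.133). Over the alternatives LYN ranged from 0.39 to 0.52 and BTK from 0.22 to 0.52.

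BLNK and PLCG2 act below the kinases, and neither kept probe set read higher in the MondoA shRNA group. BLNK (probe set 7935270, chromosome 10) read 8.16 and 8.09 in the controls and 7.95, 8.21 and 7.73 in the MondoA shRNA clones, so that array 2 was above and arrays 1 and 3 below the controls. The difference was -0.16, interval -0.65 to 0.32 (limma unadjusted p = 0.392). It was -0.28 without array 2, -0.05 without array 3 or in the fit blocked on replicate, and -0.32 with array weights. PLCG2 (probe set 7997489, chromosome 16) read 10.68 and 10.89 in the controls and 10.65, 10.49 and 10.47 in the MondoA shRNA clones. The groups were separated by 0.03, and the difference of -0.25 had an interval from -0.54 to 0.04 (limma unadjusted p = 0.0724), and was -0.15 without control array 2.

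PLCG2 was the only gene of the 9 with a further probe set of its own, and that probe set moved the other way. Probe set 7997453, which the platform annotation ties to more PLCG2 transcript records than the kept one, read 6.74 and 6.45 in the controls and 7.36, 7.88 and 7.58 in the MondoA shRNA clones. All 3 MondoA shRNA arrays lay at least 0.62 above the controls. The means were 6.60 ± 0.21 and 7.61 ± 0.26, a difference of 1.01 (2.01-fold), interval 0.42 to 1.60 (limma unadjusted p = 0.0103, adjusted p = 0.833). Without tied values its adjusted p was 0.0391, and over its 13 alternatives it ranged from 0.0391 to 0.828. The difference between the probe sets shifted by 1.26 from control to MondoA shRNA arrays (exact permutation p = 0.1, adjusted p = 0.133). As the probe sets separated in opposite directions, this p had to be the smallest the design allows and adds no evidence. With both probe sets averaged, PLCG2 differed by 0.38 in place of -0.25, so the rule that picks the brighter probe set fixed the sign given for this gene. Which exons each probe set reads was not tested.

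**Figure D3:**
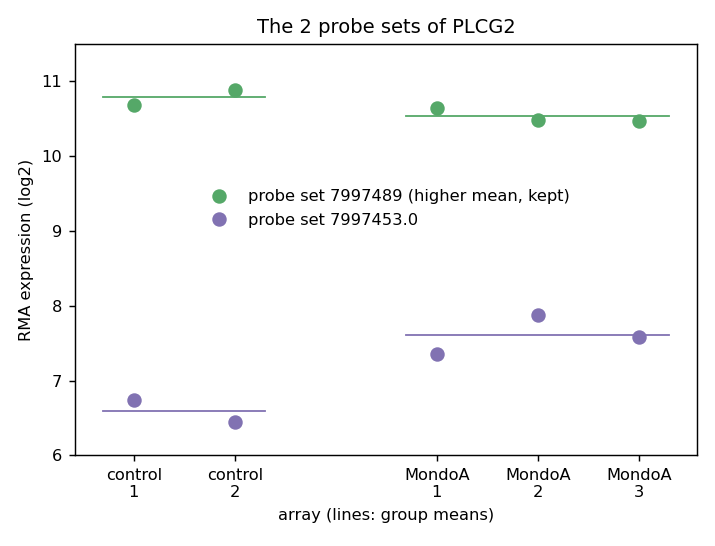
RMA expression (log2, vertical axis) of both PLCG2 probe sets in the 2 control and 3 MondoA shRNA arrays, with lines at group means. The kept probe set (green) runs from 10.47 to 10.89 and is lower in the MondoA shRNA arrays, and the other (violet) runs from 6.45 to 7.88 and is higher.

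The wider pathway was followed with 105 further genes in lists by role, of which 93 had a probe set of their own. In limma 0 of the 93 passed the adjusted threshold, and at an unadjusted p under 0.05 there were 8 higher and 3 lower, against 1.55% and 2.18% of all genes. Of the 93, 16 separated above and 7 below both controls, against 4.85% and 5.18% of all genes. Of the 33 without tied values, 8 were higher and 2 lower at that p, 15 separated above and 6 below. Over all genes without ties the shares were 5.37% higher, 7.79% lower, 14.4% above and 16.6% below. The median difference of the 93 was 0.02, against 0.00 over all genes and 0.38 for the 9 genes above. These medians are not like for like, since most of the 93 and of all genes have tied values and the 9 have none. They do not show that the shift is particular to the 9.

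The largest wider difference was in ZAP70, the relative of SYK that serves the T-cell receptor. ZAP70 read 4.50 and 4.34 in the controls and 5.33, 5.54 and 5.36 in the MondoA shRNA clones. All 3 lay above both controls, with a difference of 0.99 ± 0.10 (SE), interval to 1.27 (limma unadjusted p = 0.000888, adjusted p = 0.435). Without tied values its adjusted p was 0.014, within a range of 0.014 to 0.828 over the alternatives. ZAP70 also stands in the list of T and natural killer markers, where it was the only one of 9 with an unadjusted p under 0.05. The T-cell receptor chain genes CD3D, CD3E and CD3G read 2.18 to 2.80 in all arrays, below the median gene level. Of the other measured relatives of the 9, TEC, TXK, LCP2, CLNK and PLCG1 all overlapped between the groups.

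Among the genes that restrain the receptor, 15 of 15 were measured, at an unadjusted p under 0.05 there were 3 higher and 0 lower (1.55% and 2.18% of all genes), and the median difference was 0.01. CSK, the kinase that switches off LYN and its relatives, read 6.51 and 6.61 in the controls and 7.08, 6.87 and 7.24 in the MondoA shRNA clones, a difference of 0.50 (limma unadjusted p = 0.0241). PAG1, the membrane adaptor that holds CSK, differed by 0.30 (limma unadjusted p = 0.0626), with all MondoA shRNA arrays above both controls. PTPN6, the phosphatase recruited by CD22 and CD72, differed by 0.07 (limma unadjusted p = 0.0493). FCGR2B, an inhibitory Fc receptor, differed by 0.18 at levels of 2.53 to 2.82, below the median gene level. PTPRC, the phosphatase CD45, read 2.38 in 4 arrays and 2.41 in MondoA shRNA array 2. Of the other Src family kinases 6 of 7 were measured, and YES1 was the only one to separate, at -0.29 (limma unadjusted p = 0.0252).

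Among 21 adaptors and exchange factors, at an unadjusted p under 0.05 there were 2 higher and 0 lower, again against 1.55% and 2.18% of all genes. VAV1, a guanine nucleotide exchange factor, read 6.13 and 6.04 in the controls and 6.41, 6.55 and 6.76 in the MondoA shRNA clones, a difference of 0.49 (limma unadjusted p = 0.0228). LAT2, a membrane adaptor of B cells, was the other, at 0.32. RAC2, a GTPase that VAV1 activates, differed by 0.58 but read 8.95 in MondoA shRNA array 2 against 8.24 and 8.23 in the others (limma unadjusted p = 0.120). GAB2, an adaptor for phosphoinositide 3-kinase, differed by -0.62 (limma unadjusted p = 0.0688). PIK3CG, which encodes the gamma form of the catalytic subunit of phosphoinositide 3-kinases, read 7.28 and 7.15 in the controls. It read 7.65, 7.88 and 7.83 in the MondoA shRNA clones. Its difference was 0.57 (limma unadjusted p = 0.00532, adjusted p = 0.833), and AKT2, a kinase downstream, differed by 0.21.

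The lower branches showed smaller differences. Of 15 genes for calcium release, protein kinase C and NFAT, 0 had an unadjusted p under 0.05, and only ITPR3 (0.22) and STIM2 (0.10) separated. STIM2, a calcium sensor, passed at an adjusted p of 0.0342 without control array 1, where its difference was 0.15, but was 0.05 without control array 2 (adjusted p = 0.246), in a range of adjusted p from 0.0342 to 0.922 over the alternatives. YES1 lies on chromosome 18, where the median difference of 110 genes with a mean above 5 was -0.42. In the pre-B receptor and co-receptor list 6 of 8 were measured, VPREB1 and IGLL1 overlapped between the groups, and CD81, a tetraspanin, differed by -0.18 (limma unadjusted p = 0.00568). Of 10 measured B-lineage transcription factors, TCF3, which encodes E2A, differed by 0.25 (limma unadjusted p = 0.0264), SPI1, which encodes PU.1, by 0.33 (limma unadjusted p = 0.181) and RUNX1 by -0.27 (limma unadjusted p = 0.00602). All 3 separated from the controls, and of the 10 in total 2 separated above and 2 below (4.85% and 5.18% of all genes).

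**Figure D4:**
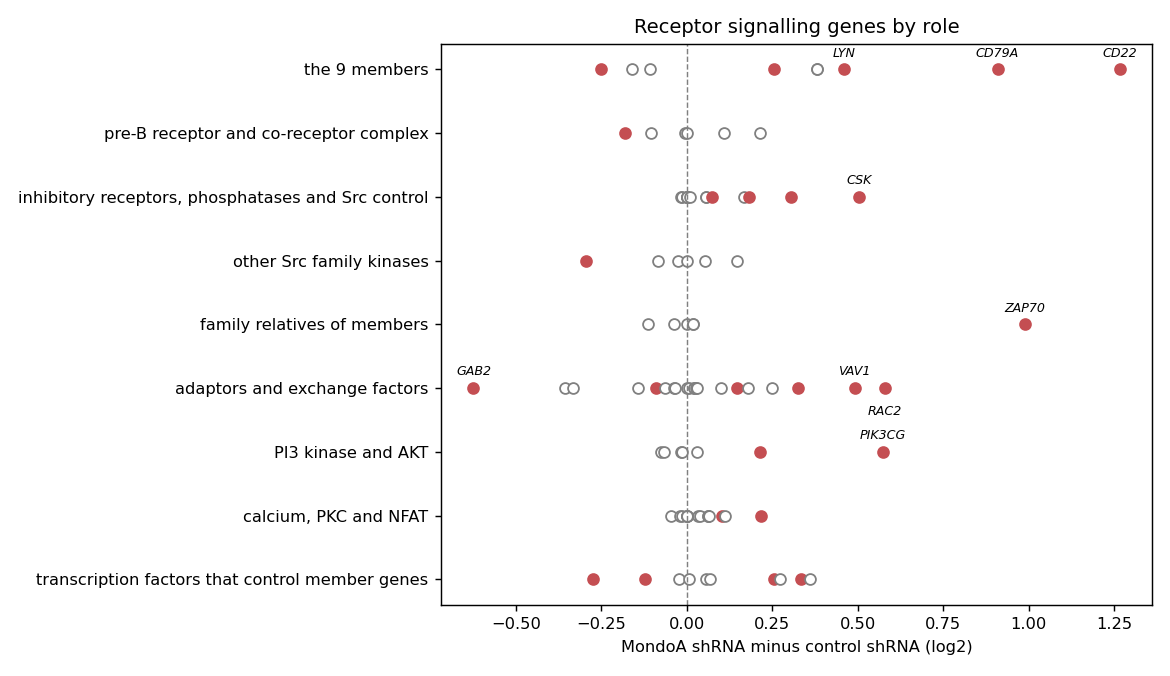
Difference of MondoA shRNA minus control shRNA means (log2, horizontal axis) for the 9 genes and the measured genes of the wider lists described above (rows). Filled points are genes with all MondoA shRNA values above both controls or all below both, open points are the other genes, and names mark differences of at least 0.45 in size: CD22, CD79A, ZAP70, RAC2, PIK3CG, CSK, VAV1 and LYN lie to the right and GAB2 to the left.

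The nearest measured genes on each side were read as a description of the chromosomal setting. RPS19 (-0.12) and ARHGEF1 (-0.04) flank CD79A, MAG (0.05) and FFAR1 (0.01) flank CD22, and TGS1 (-0.01) and RPS20 (-0.15) flank LYN. Of these 6, RPS20 alone separated from the controls, in the direction opposite to LYN. GH1 (-0.02) and SCN4A (0.05) beside CD79B, DIRAS2 and AUH (both 0.00) beside SYK, TIMM8A (0.08) and GLA (-0.05) beside BTK, and CMIP (0.00) and SDR42E1 (-0.14) beside PLCG2 all overlapped between the groups. Larger differences stood beside 2 genes that overlapped. SIT1, an adaptor of lymphocyte receptors next to CD72, read 4.90 and 4.40 in the controls and 5.75, 5.84 and 5.04 in the MondoA shRNA clones, a difference of 0.89 (limma unadjusted p = 0.0693). As in CD72, array 3 was the lowest of the 3, but array 2 stood above array 1 in SIT1 and below it in CD72. DNTT, the terminal transferase gene next to BLNK, read 10.57 and 10.47 in the controls and 9.15, 9.73 and 9.09 in the MondoA shRNA clones, a difference of -1.19 (limma unadjusted p = 0.0110). As in BLNK, array 2 was the highest of the 3. Whether neighbours share a pattern was not tested. TESK1 on the other side of CD72 differed by -0.11 and ZNF518A on the other side of BLNK by -0.28. Medians over genes with a mean above 5 on chromosomes 8, 9, 10, 16, 17, 19 and X, which hold the 9 genes, ran from 0.00 to 0.03.

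Genes with the most similar pattern over the 5 arrays were sought for the 5 genes whose values spanned at least 0.5, by the root mean square distance between profiles centred on their means. CD22 lay nearest to TGFBR2, a receptor of transforming growth factor beta, at a distance of 0.13, then to LPXN at 0.24 and ZAP70 at 0.25. TGFBR2 read 7.33 and 7.38 in the controls and 8.30, 8.72 and 8.52 in the MondoA shRNA clones, a difference of 1.16. CD79A lay nearest to PSD4 (0.17), the tetraspanin gene CD82 (0.19) and TYW1 (0.20). LYN lay nearest to ATF5 (0.05), TK2 (0.05) and LPIN1 (0.06), and CD72 to PPCDC (0.09), TPRX1 (0.09) and SWAP70 (0.10), the last an adaptor expressed in B cells. BTK lay nearest to NUBP1 (0.02), PRKAG1 (0.02) and C1GALT1 (0.04), all 3 with their highest value in MondoA shRNA array 2. Within the set, the closest pair was SYK and BLNK at 0.13, both nearly flat, followed by CD79B and LYN at 0.15, and the farthest was CD22 and PLCG2 at 0.79. These distances describe 5 arrays and carry no test.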

How the data were processed

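RNA of 5 Nalm6 clones was hybridised to Affymetrix whole-transcript arrays after labelling of 200 ng per clone. Per the submitters' processing notes, the authors summarised probes with RMA in Affymetrix Expression Console 1.1. The deposited values are taken as log2 per probe set, which is what RMA gives, and the base is not stated in the labels. They ran from 1.42 to 13.34 over 33297 probe sets, and the number of arrays limits the precision. Detection calls and array batches were not analysed here. Of the probe sets, 19460 had exactly 1 gene symbol, 1754 several and 12083 none, and 19429 matched RefSeq (GRCh38.p14) by Entrez number. For each gene the probe set of highest mean was kept, giving 18417 genes.

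Groups followed the titles. All genes were fitted with limma 3.58.1 in R 4.3.3 (linear model, empirical Bayes, two-sided, Benjamini-Hochberg over all genes). Shifts in the difference within arrays, for 4 pairs of probe sets, used an exact permutation test. In simulated data, 200 of 18417 genes were changed. There limma called 64.2% of changes of 1 log2 unit, 94.2% of those of 3 and 0.0604% of unchanged genes. Each simulated gene kept its own spread, which is small for many genes with tied values. The 9 genes have no tied values, so these shares do not give the power for them. The genes, lists and tests were chosen with earlier results of these data known. Named are the 9 genes, MLXIP, up to 3 genes per wider list of largest difference with separated groups, flanking genes and the 3 nearest profiles, genes on chromosome Y left out. PTPN6, PTPRC, LAT2, VPREB1 and IGLL1, PAX5, the CD3 genes and relatives named as overlapping are additions picked after seeing their values. So was DNTT where it is named among the markers. Nothing in the labels links clones by number, and a fit with that number as a block was 1 alternative. Other alternatives left out 1 array, changed the normalisation, centring, gene filter, moderation, array weights (statmod 1.5.0), prior or choice of probe set. Using the other PLCG2 probe set was added after seeing the data. The results of 1 wider list are not reported here, beyond its share of the pathway counts.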

Additional observations from a re-analysis of the deposited data

How the results depend on the processing

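Of 135 values for the 9 genes over 15 alternatives, 1 changed sign (PLCG2, 0.38 with its probe sets averaged) and 2 passed the adjusted threshold, CD22 and CD79A without tied values. MLXIP was 0.03 under the replicate block and ran from -0.06 to 0.03 when single arrays were dropped. Past the threshold stood 2 of the 9 genes without tied values, and none of the 9 when any single array was dropped. Over all genes the number past it was 2 after a further quantile normalisation, 2 after centring, 3 when the moderation was dropped and 60 when genes with ties were dropped. It ran from 0 to 752 when single arrays were dropped (752 without control array 1 and 454 without control array 2). For the wider pathway it was 1 when genes with ties were dropped and 0 to 5 when single arrays were (5 without control array 1 and 2 without control array 2). A lone control is then taken to vary as the MondoA shRNA clones do. The cause of these moves was not tested. Once ties are dropped, fewer genes enter the fit and the unadjusted p moves too. In limma it went from 0.0079 to 0.000178 for CD22 and from 0.0056 to 0.0705 for CD79B. The fit of the 9208 genes above the median level called 0 genes. The groups separated for 5 of the 9 genes, and for 6 to 7 when an array was dropped, since fewer arrays had to separate.

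Under the replicate block 0 of the 9 passed, with CD22 at 1.18 and CD79A at 0.85. That fit gives no weight to MondoA shRNA array 3, whose number has no partner, and so repeats the differences found on dropping it. Deviations of arrays with the same number correlated at -0.34 and -0.25 over 4301 genes. So few clones cannot decide whether the number is a pairing, and the labels do not state one.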
